A study of Mus musculus with 2 samples.

Results

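The expression of 10 genes used as markers of brain pericytes (PCs) was read in single cultured PCs of the mouse. These are the receptor genes *Pdgfrb* and *Notch3*, the surface protein genes *Cspg4*, *Anpep* and *Mcam*, the signalling gene *Rgs5*, the potassium channel genes *Kcnj8* and *Abcc9*, the secreted protein gene *Vtn* and the mitochondrial protein gene *Higd1b*. They were chosen by symbol, and all 10 were found among the 31053 genes of the deposited tables. *Pdgfrb*, *Cspg4*, *Anpep*, *Rgs5* and *Abcc9* are called canonical here, since the study used these 5, and the others are called added markers. The markers were read in cells with more than 1000 genes and under 20% of their unique molecular identifiers (UMIs, each the tag of 1 captured RNA molecule) from mitochondrial genes, 9950 cells at passage 5 (PC5) and 4749 at passage 20 (PC20), 14699 in all.

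PCs wrap capillaries from the outside and are in direct contact with endothelial cells. PDGFRβ on their surface receives PDGF-BB from endothelial cells and is needed to recruit them to vessels, and NOTCH3 receives signals from ligands on neighbouring cells. Brain PCs in the vessel wall are known for a channel made of the products of *Kcnj8* and *Abcc9*, which opens when ATP is low, and for *Vtn* and *Higd1b*, while *Rgs5*, *Cspg4*, *Anpep* and *Mcam* are shared with smooth muscle or other cells.

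Both groups were unmodified cultures from brains of wild type female C57BL/6N mice, 6 to 8 weeks old, with the brains of 6 mice pooled for an isolation and no treatment other than passaging. Each passage was 1 culture and 1 droplet library. The methods of the study give each culture an isolation of its own and the deposited description gives 1 for both, so passage and isolation cannot be told apart. The sources state no sort of these cultured cells, which in both groups were grown out of digested brain, first in endothelial cell growth medium and then in pericyte medium. With 1 library per passage no test between passages was made, and no difference has a replicate check. Intervals in parentheses are at the 95% level and cover counting error only.

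The libraries differed in depth and in genes of other cell types. The kept cells held a median of 21700 UMIs in PC5 and 33424 in PC20, and 20 cell barcodes were shared by the kept cells of both libraries. Without the shared barcodes the log2 ratio of PC5 over PC20 stayed at 3.04 for *Pdgfrb*, 5.80 for *Cspg4* and -0.63 for *Anpep*. Of 10 fibroblast markers, all 8 with a mean of at least 1 CPM (UMIs per 1000000) were at least 2-fold higher in PC5, against 20.3% of all genes at this level. Only *Col3a1*, with 1158 and 101 CPM in PC5 and PC20, and *Col1a1*, with 576 and 6.04 CPM, were above 1 CPM in both libraries. The others reached the mean only through PC5, so their place in this count is no support for it. The summed level of the 10 was 3686 CPM in PC5 and 108 CPM in PC20. The summed level of 10 endothelial markers was 201 and 74.1 CPM, of which *Cdh5* made 168 CPM in PC5 and *Flt1* 73.9 CPM in PC20, while *Pecam1* had 0.542 and 0.110 CPM and *Cldn5* 0.0628 and 0.0419 CPM. Of 5 epithelial markers, *Krt18* had 913 CPM in PC20 against 0.134 CPM in PC5, and *Krt8* 98.4 against 0.0269 CPM. *Krt19* was present in both, at 120 CPM in PC20 and 46.5 CPM in PC5. *Epcam* and *Cdh1* were low in both, at 0.267 and 0.131 CPM in PC20 and 0.0493 and 0.0179 CPM in PC5. Some of these genes were found in most cells of a library. A *Krt18* UMI was in 99.6% of PC20 and 0.261% of PC5 cells, and a *Cdh5* UMI in 73.2% of PC5 and 0.105% of PC20 cells. *Pecam1* was in 0.945% and 0.442% of PC5 and PC20 cells. The libraries therefore held genes of other lineages in different amounts, and their part in the marker levels below was not tested.

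The bases upstream of 4 markers are shown because the libraries differed in them in distinct ways. *Notch3* and *Cspg4* were lower in PC20, *Anpep* was higher there, and *Rgs5* had no UMI in PC20. The sequences are from RefSeq on GRCm38.p6, run 5′ to 3′ on the gene's strand, hold no annotated exon of the gene, and carry CG pairs in capitals. That of *Anpep* lies before the RefSeq start, inside the longer gene that GENCODE annotates.
*Notch3* upstream, chr17:32166891-32167140, minus strand: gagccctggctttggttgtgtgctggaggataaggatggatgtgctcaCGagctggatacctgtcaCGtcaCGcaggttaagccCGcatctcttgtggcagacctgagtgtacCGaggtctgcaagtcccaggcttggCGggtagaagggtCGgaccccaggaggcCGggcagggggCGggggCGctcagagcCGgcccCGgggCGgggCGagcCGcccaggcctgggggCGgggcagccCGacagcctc
*Cspg4* upstream, chr9:56864854-56865032, plus strand: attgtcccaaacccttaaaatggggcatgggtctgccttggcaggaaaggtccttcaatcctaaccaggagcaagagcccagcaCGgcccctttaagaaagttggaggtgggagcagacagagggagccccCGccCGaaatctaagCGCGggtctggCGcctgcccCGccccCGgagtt
*Anpep* upstream, chr7:79848211-79848460, minus strand: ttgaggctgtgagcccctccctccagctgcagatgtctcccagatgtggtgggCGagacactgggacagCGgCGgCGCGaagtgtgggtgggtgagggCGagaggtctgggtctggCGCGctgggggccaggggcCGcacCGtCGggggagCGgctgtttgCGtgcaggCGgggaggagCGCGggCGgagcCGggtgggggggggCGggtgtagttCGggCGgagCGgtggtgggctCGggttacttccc
*Rgs5* upstream, chr1:169655251-169655500, plus strand: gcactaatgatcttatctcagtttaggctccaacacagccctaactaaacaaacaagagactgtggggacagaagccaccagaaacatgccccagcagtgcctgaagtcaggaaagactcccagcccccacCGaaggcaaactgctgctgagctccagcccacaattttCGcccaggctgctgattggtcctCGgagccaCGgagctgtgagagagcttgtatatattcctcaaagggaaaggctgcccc

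RefSeq windows from 250 bases before to 50 after the start were at hand for 8 of the 10 markers. Their CG content was uneven. The windows of *Mcam*, *Anpep* and *Notch3* held 29, 28 and 25 CG pairs, those of *Cspg4* and *Abcc9* 17 and 16, and those of *Kcnj8*, *Vtn* and *Rgs5* 9, 9 and 6, against a median of 7 over 32851 windows. The GC box GGGCGG, read on both strands, occurred 5 times in *Mcam*, 4 times each in *Anpep* and *Notch3*, 2 times in *Cspg4* and 1 time in *Abcc9*, and not in the other 3, while 35.7% of all windows held it. The RBPJ core TTCCCA, the letters read by the DNA-binding partner of Notch receptors, lay in the windows of *Vtn*, *Abcc9* and *Kcnj8*, against 25.6% of all windows. The TEAD core GGAATG lay in *Vtn* and *Abcc9*, against 14.7%, and a CArG box, the element bound by SRF, in none of the 8, against 1.63%. These matches describe letters in a window and not sites.

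Levels are given as CPM, the UMIs of a gene summed over the kept cells of a library per 1000000 UMIs. The UMIs come from the 3′ end of transcripts, so a level is not scaled by transcript length. Shares of cells with a UMI are given after random thinning of every cell to 10500 UMIs, because a deeper cell shows a weakly expressed gene more often, and the share with all UMIs follows. Genes that PCs should lack, 13 from neurons, blood and other lineages, gave the background, and their thinned shares reached 0.147% in PC5 (*Cd79a*) and 0.112% in PC20 (*Slc17a7*), and with all UMIs 0.191% and 0.379%.

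Of the 10 markers 4 in PC5 and 6 in PC20 were not above background beyond counting error, so the labelled cell type showed part of its marker set. In PC5 *Pdgfrb* was highest, then *Notch3* and *Cspg4*, each apart from the next. *Mcam*, *Anpep* and *Rgs5* followed at about 2 CPM with overlapping intervals, and *Vtn*, *Kcnj8*, *Abcc9* and *Higd1b* were at or near 0. In PC20 the order was *Pdgfrb*, *Anpep*, *Notch3*, *Mcam* and *Cspg4*, with no overlap between neighbours, and then *Abcc9*, which had 1 UMI, and 4 markers with none.

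**Figure D1:**
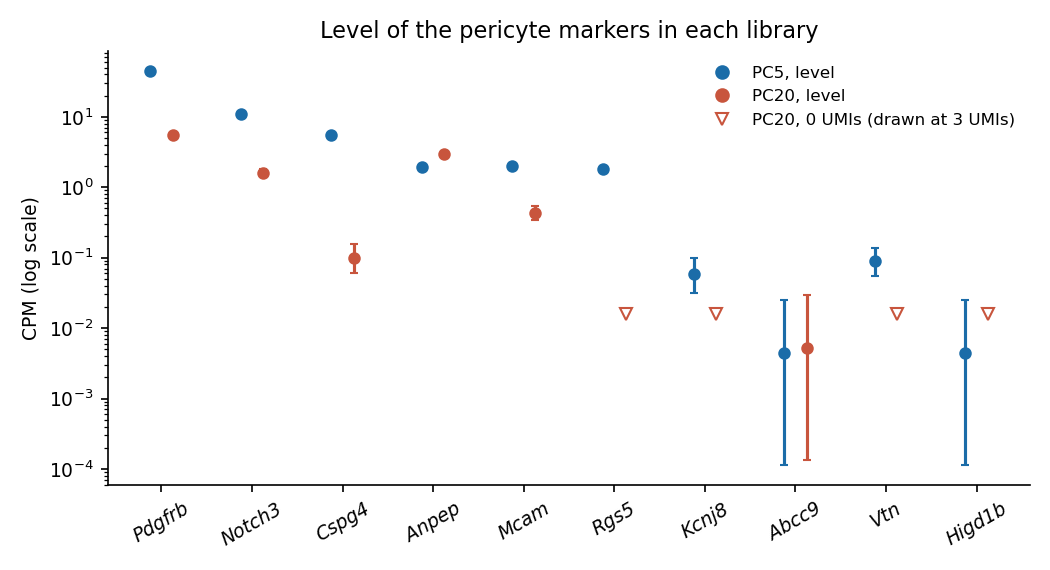
Level of the 10 markers in the PC5 and PC20 libraries (CPM, log scale), 1 point per library with its exact 95% Poisson interval. Triangles mark a library with 0 UMIs and are drawn at the CPM of 3 UMIs. Of the 5 markers with a mean of at least 1 CPM, *Anpep* alone has its PC20 point above its PC5 point. The 4 markers at the right have 20 UMIs or fewer in each library.

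Of the 10 markers, 5 had a mean of at least 1 CPM over both libraries, *Pdgfrb*, *Notch3*, *Cspg4*, *Mcam* and *Anpep*. Of these, 4 were at least 2-fold higher in PC5, where 20.3% of the 11761 genes at this level were, and 0 were at least 2-fold higher in PC20, where 18.5% of genes were. *Cspg4* and *Mcam* reached the mean of 1 CPM only through PC5, where they were higher, so their place in this count is no support for it, whereas *Pdgfrb* and *Notch3* were above 1 CPM in both libraries. The median log2 ratio of PC5 over PC20 was 0.02 over those genes.

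Among the receptors, *Pdgfrb* (ENSMUSG00000024620, chromosome 18 from 61045150 to 61085061, plus strand) had 9942 UMIs in PC5 and 1037 in PC20. This gave 44.6 CPM (43.7 to 45.5) and 5.43 CPM (5.10 to 5.77), 8.21-fold higher in PC5 (log2 ratio 3.04, 2.95 to 3.13). In PC5 this placed it above 85.6% of the genes with a UMI, and in PC20 above 53.8%. A UMI was found in 36.3% of thinned PC5 cells (35.3 to 37.3) and 5.50% of PC20 cells (4.85 to 6.21), and with all UMIs in 54.2% and 16.5%. Of its 5394 positive PC5 cells 1384 had 2 UMIs and 1124 had 3 or more, while of the other markers 77.0% or more of the positive PC5 cells had a single UMI.

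*Notch3* (ENSMUSG00000038146, chromosome 17 from 32120820 to 32166852, minus strand) was lower than *Pdgfrb* in both libraries and 6.96-fold higher in PC5. It had 2484 and 306 UMIs, or 11.1 CPM (10.7 to 11.6) in PC5 against 1.60 CPM (1.43 to 1.79) in PC20 (log2 ratio 2.80, 2.63 to 2.97). Of the thinned cells 10.2% of PC5 and 1.59% of PC20 had a UMI, and 18.9% and 5.87% with all UMIs. Its exons overlap those of *Gm17276* on the other strand, and whether the counting used strand is not stated in the sources used here.

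Among the surface proteins, *Cspg4*, which encodes the proteoglycan NG2, was near background in PC20. This gene (ENSMUSG00000032911, chromosome 9 from 56865033 to 56899870, plus strand) had 1237 UMIs in PC5 and 19 in PC20. Its level was 5.55 CPM (5.24 to 5.86) against 0.0994 CPM (0.0599 to 0.155), 55.8-fold higher in PC5 (log2 ratio 5.80, 5.15 to 6.54). The share of thinned cells was 5.23% in PC5, above background, and 0.156% in PC20, where the interval (0.0629 to 0.322) held the background share. The PC20 value is therefore not read as expression, and the fold is a ratio of counted UMIs, not of expression.

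*Mcam* encodes CD146, an adhesion protein of endothelial and mural cells. The gene (ENSMUSG00000032135, chromosome 9 from 44134469 to 44142727, plus strand) had 448 UMIs in PC5 and 83 in PC20. These gave 2.01 CPM (1.83 to 2.20) and 0.434 CPM (0.346 to 0.538), 4.62-fold higher in PC5 (log2 ratio 2.21, 1.87 to 2.57). A UMI was found in 2.13% of thinned PC5 cells and 0.447% of PC20 cells (0.273 to 0.690), both above background. Its exons overlap those of *Gm10687* on the other strand.

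*Anpep*, which encodes the aminopeptidase CD13, was the exception. The gene (ENSMUSG00000039062, chromosome 7 from 79821803 to 79861059, minus strand) had 431 UMIs in PC5 and 573 in PC20. At 3.00 CPM (2.76 to 3.25) in PC20, against 1.93 CPM (1.75 to 2.12) in PC5, it was 1.55-fold higher in PC20 (log2 ratio -0.63, -0.82 to -0.45). The thinned shares were 2.07% (1.78 to 2.39) and 2.44% (2.00 to 2.93), whose intervals overlap. Averaged over all possible draws of 10500 UMIs the expected shares were 2.04% and 2.85%. With all UMIs the share was 4.05% in PC5 and 9.43% in the deeper PC20 library.

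*Rgs5* encodes a protein that shuts off G protein signalling. The gene (ENSMUSG00000026678, chromosome 1 from 169655501 to 169695813, plus strand) had 405 UMIs in PC5 and 0 in PC20. The PC5 level was 1.82 CPM (1.64 to 2.00), which was 116-fold above a floor of 3 UMIs in PC20 (log2 ratio 6.85). The counting interval of the log2 ratio has no upper end and began lower, at 6.55. A UMI was found in 1.53% of thinned PC5 cells (1.28 to 1.80), and in 0 of 4474 thinned PC20 cells. Counted as 3 cells, this allows up to 0.0671% of cells with a UMI at this depth, and it sets no limit on the cells that express the gene below that depth. Its UMIs were uneven over cells. The 10 cells with the most held 18.0% of them and 1 cell held 14. For the PC5 markers with similar counts, the 10 cells with the most held 8.26% of the 448 *Mcam* UMIs and 5.10% of the 431 *Anpep* UMIs.

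The channel genes were at or under background in both libraries. *Kcnj8* (ENSMUSG00000030247, chromosome 6 from 142564837 to 142571614, minus strand), which encodes the pore, had 13 UMIs in PC5, each in a separate cell, and 0 in PC20. *Abcc9* (ENSMUSG00000030249, chromosome 6 from 142587862 to 142702315, minus strand), which encodes the regulatory subunit and lies 16247 bases from *Kcnj8*, had 1 UMI in each library. The thinned shares of PC5 cells were 0.0339% for *Kcnj8* and 0.0113% for *Abcc9*, and exons of *Abcc9* overlap those of *5330439B14Rik* on the other strand. Of the related genes, *Abcc8* and *Kcnj11* had 0 UMIs in both libraries, so the list of 4 channel genes had no member at 1 CPM.

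*Vtn* and *Higd1b* were also not detectable above background. *Vtn* (ENSMUSG00000017344, chromosome 11 from 78499091 to 78502324, plus strand), which encodes the adhesive plasma and matrix protein vitronectin, had 20 UMIs in PC5, where its thinned share was 0.0904%, and 0 in PC20. *Higd1b* (ENSMUSG00000020928, chromosome 11 from 102835849 to 102838040, plus strand) had 1 UMI in PC5 and 0 in PC20. Its product is a membrane protein of mitochondria. No fold is given for these 4 low markers. Of 5 genes of receptors that bind vitronectin, 4 had a mean of at least 1 CPM. Among them were *Itgb1* at 771 and 480 CPM, *Itgav* at 292 and 57.7 CPM and *Plaur* at 13.1 and 41.3 CPM in PC5 and PC20. *Itgb3* did not reach that mean, with 1.22 CPM in PC5 and 1 UMI in PC20. *Itgav* was at least 2-fold higher in PC5 and *Plaur*, the urokinase receptor, in PC20, and *Itgb1* and *Itgb5* differed by less. Over all genes at this level 20.3% were at least 2-fold higher in PC5 and 18.5% in PC20.

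**Figure D2:**
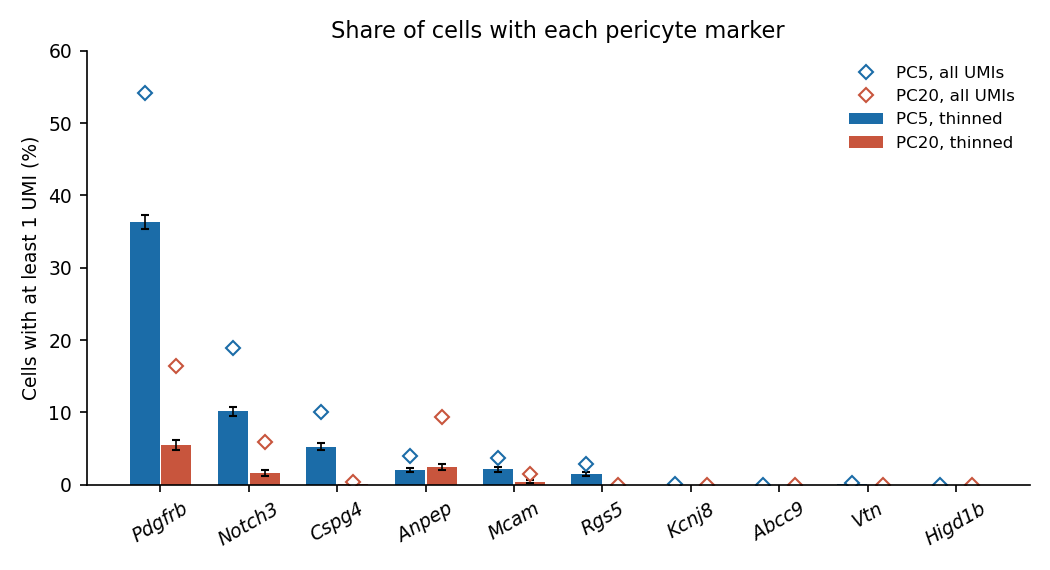
Share of cells with at least 1 UMI of each marker (%), as bars for cells thinned to 10500 UMIs with exact 95% Clopper-Pearson intervals, and as diamonds for all UMIs. *Pdgfrb* reaches 36.3% of thinned PC5 cells and 5.50% of thinned PC20 cells, and the other markers 10.2% or less.

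Single cells rarely held more than 1 of the markers. Of 8847 thinned PC5 cells, 4531 (51.2%) had none of the 10, and of 4474 thinned PC20 cells 4050 (90.5%) had none. At least 2 markers were found in 708 PC5 cells, 8.00% (7.45 to 8.59), and in 29 PC20 cells, 0.648% (0.435 to 0.930). At least 3 were found in 67 PC5 cells and 0 PC20 cells, and the most in a thinned cell was 4. Without thinning, at least 2 markers were in 21.8% of PC5 and 5.18% of PC20 cells, and 1 PC5 cell of 9950 held 5. No kept cell of either library held all 5 canonical markers.

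With the 5 added markers the share of thinned PC5 cells with at least 1 marker went from 42.0% to 48.8%, and with at least 2 from 3.05% to 8.00%. Such shares cannot fall when a list grows, so only the size of the rise is described. In 598 thinned PC5 cells, 6.76%, an added marker was found without a canonical one, as in 78 PC20 cells, 1.74%. *Notch3* and *Mcam*, present in 899 and 188 thinned PC5 cells, accounted for most of this. At least 3 canonical markers were in 45 PC5 cells with all UMIs and in 0 PC20 cells.

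**Figure D3:**
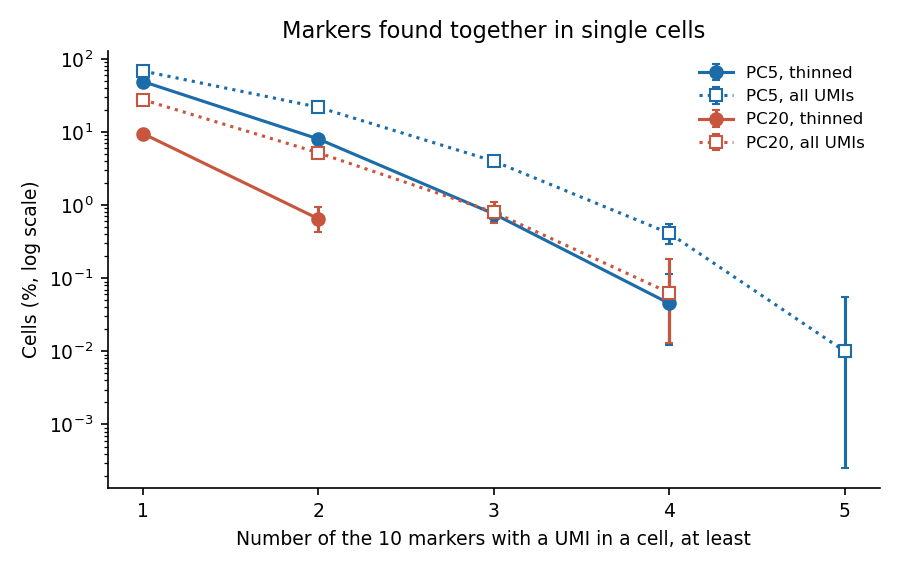
Share of cells (%, log scale) with at least the given number of the 10 markers, for cells thinned to 10500 UMIs (filled circles) and with all UMIs (open squares), with exact 95% Clopper-Pearson intervals. PC5 lies above PC20 at each number at the same depth, and no thinned PC20 cell had 3 or more markers.

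Pairs of markers were described by the number of cells with both over the number that the product of both shares gives, which is 1 where detection of one does not go with the other. In thinned PC5 cells 17 of 45 pairs had a product of at least 1 cell, their median ratio was 1.07, and 2 had an interval above 1. *Mcam* was in both of these. *Cspg4* and *Mcam* were found together in 18 cells against 9.84 by the product, a ratio of 1.83 (1.08 to 2.89), and *Notch3* and *Mcam* in 32 against 19.1, 1.68 (1.15 to 2.36). An *Mcam* UMI was thus present in 3.56% of *Notch3* cells and 1.96% of the others. With all UMIs, where depth also varies between cells, these pairs had 1.71 each.

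*Pdgfrb*, the most widespread marker, was found with the others about as often as the product gives. Its ratios in thinned PC5 cells were 1.02 (0.913 to 1.13) with *Notch3*, 0.939 (0.799 to 1.10) with *Cspg4*, 0.903 (0.689 to 1.16) with *Anpep* and 1.13 (0.890 to 1.41) with *Mcam*. *Rgs5* cells carried these markers at shares whose ratios also had intervals around 1. Of 135 thinned *Rgs5* cells, 43 had *Pdgfrb*, 31.9% against 36.4% of the other cells, a ratio of 0.877 (0.635 to 1.18), 14 had *Notch3* (ratio 1.02, 0.558 to 1.71) and 8 had *Cspg4* (ratio 1.13, 0.489 to 2.23).

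In PC20 1 of 4 pairs with a product of at least 1 cell had an interval above 1, *Pdgfrb* and *Anpep*. Both were in 16 thinned cells against 5.99 by the product, a ratio of 2.67 (1.53 to 4.34), while in PC5 the interval of the same pair held 1. *Anpep* was present in 6.50% of the thinned PC20 cells with *Pdgfrb* and in 2.20% of those without. With all UMIs *Anpep* and *Notch3* were together in 63 cells against 26.3 by the product. Cells with *Pdgfrb* had 1.41 times the median UMIs of cells without it in PC20 and those with *Notch3* 1.68 times, against 1.25 and 1.22 times in PC5.

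**Figure D4:**
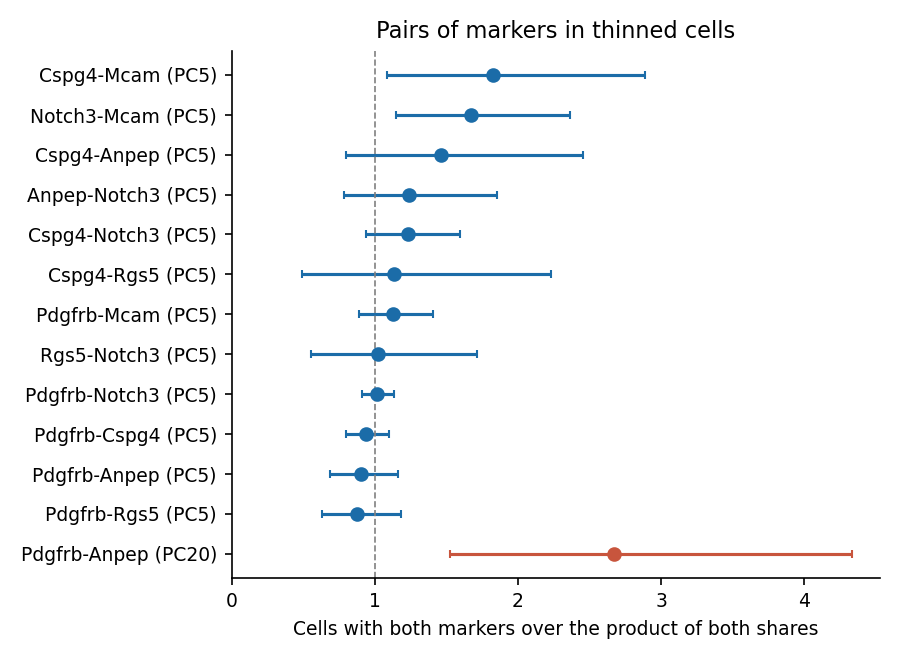
Cells with both markers of a pair over the number given by the product of both shares, in thinned cells, for pairs with a product of at least 5 cells. Points are ratios, bars exact 95% Poisson intervals of the joint count, and the dashed line marks 1. *Cspg4*-*Mcam* and *Notch3*-*Mcam* in PC5 and *Pdgfrb*-*Anpep* in PC20 have intervals above 1.

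The markers varied with the cell cycle in different directions. Cells were split by a UMI of *Mki67* or *Top2a* after thinning, which 3114 of 8847 PC5 and 2573 of 4474 PC20 cells had. *Cspg4* was found more often in PC5 cells with such a UMI, in 6.52% (5.68 to 7.44) against 4.54% (4.01 to 5.11). *Pdgfrb* and *Notch3* were found less often in them, *Pdgfrb* in 33.6% (31.9 to 35.3) against 37.8% (36.6 to 39.1) and *Notch3* in 8.64% (7.67 to 9.68) against 10.99% (10.2 to 11.8). The other 3 markers had lower shares too, but with overlapping intervals. *Anpep* was in 1.57% (1.17 to 2.08) against 2.34% (1.96 to 2.76), *Mcam* in 1.73% (1.31 to 2.26) against 2.34% (1.96 to 2.76) and *Rgs5* in 1.41% (1.03 to 1.89) against 1.59% (1.28 to 1.95).

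A larger part of the PC20 cells had a *Mki67* or *Top2a* UMI, so each log2 ratio was also read without them, counting all UMIs. *Pdgfrb* then had a log2 ratio of 2.74, *Notch3* of 2.65, *Mcam* of 2.57 and *Cspg4* of 6.34, and *Anpep* of -0.64. For *Rgs5* the bound against 3 UMIs was a log2 ratio of 4.86, down from 6.85 over all kept cells. These values come from 5475 PC5 and 1321 PC20 cells, and a bound against 3 UMIs falls as fewer UMIs are counted. Those of *Pdgfrb*, *Mcam* and *Rgs5* lay outside the counting interval over all kept cells. The signs stayed the same, and the part of the cell cycle in the differences between the libraries was not tested. Within PC20 *Anpep* was found in 1.90% (1.41 to 2.51) of thinned cells with and 3.16% (2.42 to 4.04) of those without such a UMI, and *Pdgfrb* in 4.86% (4.06 to 5.76) and 6.37% (5.31 to 7.56), with overlapping intervals.

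The level of some markers also differed with the depth of a cell. PC5 cells were split by UMIs into 4 groups of nearly equal size. *Rgs5* had 3.45 CPM (2.77 to 4.25) in the shallowest and 1.22 CPM (1.00 to 1.47) in the deepest group, and *Pdgfrb* 48.8 and 39.3 CPM. *Cspg4* went the other way, with 3.92 CPM (3.19 to 4.76) in the shallowest and 6.76 CPM (6.23 to 7.32) in the deepest group.

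Clustering of both libraries together, with the markers kept out of the 2000 variable genes (*Rgs5* alone was among them), gave 14 clusters. Of these 8 held at least 50 PC5 cells and 7 at least 50 PC20 cells, and 1 held both, cluster 10, whose PC5 cells had a median of 5715 UMIs. Clusters are named by their number and the genes with the highest fold over the other cells of the library. In PC5 *Pdgfrb* was highest in cluster 5, whose leading genes include *Mgp* and *Chst15*, at 70.9 CPM (67.6 to 74.3), and lowest in cluster 10, at 13.7 CPM (9.63 to 19.0). *Mcam* was highest in the same cluster 5, at 4.69 CPM (3.87 to 5.63), against 1.92 CPM in the next, cluster 1. The other 6 clusters held *Pdgfrb* at 38.5 to 45.8 CPM.

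*Rgs5* and *Notch3* shared another cluster. Cluster 3 of PC5, 1405 cells led by *Trf*, *Il33* and *Dcn*, had 5.70 CPM of *Rgs5* (4.82 to 6.69), against 0.674 CPM (0.393 to 1.08) in cluster 4, and 18.9 CPM of *Notch3* (17.3 to 20.6), against 12.7 CPM in the next cluster. *Anpep* was highest there too, at 3.38 CPM (2.72 to 4.16), with 2.93 CPM (2.30 to 3.70) in cluster 5, while *Cspg4* stood at 3.27 CPM (2.61 to 4.04), its lowest outside cluster 10. *Rgs5* was next highest, at 3.65 CPM, in cluster 8, led by *Stra6*, *Col6a3* and *Nrep*. *Cspg4* was highest in cluster 1, led by the mitosis genes *Nusap1*, *Aspm* and *Top2a*, at 7.85 CPM (7.15 to 8.61). Cluster 1 had a median of 28569 UMIs, against 21700 over the kept PC5 cells. Depth and the cell cycle were not told apart for *Cspg4*.

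At a resolution of 0.4 in place of 0.8, 206 of the cluster 3 cells formed a group of their own, 2.07% of PC5 cells, with a median of 13246 UMIs. They were picked out here after their marker values were seen. *Mt3*, *Lcn2*, *Igfbp5*, *S100a8* and *Atf3* led the group. It held 37.8 CPM of *Notch3* (31.2 to 45.4) against 10.8 CPM in the other PC5 cells, 13.7 CPM of *Rgs5* (9.84 to 18.6) against 1.65 CPM, and 7.36 CPM of *Mcam* (4.61 to 11.1) against 1.94 CPM. *Pdgfrb* was lower there, at 32.1 CPM (26.0 to 39.2) against 44.7 CPM, and *Cspg4* had 7.03 CPM (4.35 to 10.7) against 5.53 CPM. The group carried 10.1% of all *Rgs5* UMIs of PC5, but *Abcc9*, *Vtn* and *Higd1b* had 0 UMIs and *Kcnj8* had 1.

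In that group several markers were high over the cells as a whole, and single cells held 2 or more of them more often than elsewhere. Because the group was picked with its marker levels known, this share describes the picked cells and is no separate support. After thinning, 21 of 143 cells had at least 2 markers, 14.7% (9.33 to 21.6), against 7.89% of the other PC5 cells, and no cell held more than 4 with all UMIs. With all UMIs 8 of the 23 cells with *Rgs5* also had *Notch3*, against 6.92 by the product. The glial genes *Gfap* and *Slc1a3* had 24.8 and 69.3 CPM in these cells against 0.105 and 4.31 CPM in the others, and *Aldh1l1* had 20.4 against 7.18 CPM, while the astrocyte marker *Slc4a4* was lower, at 89.0 against 144 CPM. A *Gfap* UMI was found in 0.201% of all PC5 cells, and the group made up 2.07% of them. Most cells of the group thus had no *Gfap* UMI. Of the fibroblast markers *Dcn* had 219 against 49.0 CPM, *Pdgfra* 135 against 87.9 CPM and *Lum* 3.35 against 3.57 CPM. Their part in the marker levels was not tested.

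In PC20 *Pdgfrb*, *Anpep* and *Notch3* had their highest levels in 1 small cluster. Cluster 11, 211 cells led by *Bgn*, *Cdo1* and *Inmt*, had 20.6 CPM of *Pdgfrb* (17.8 to 23.8), against 3.17 to 6.04 CPM in the 4 larger clusters. It also had 9.15 CPM of *Anpep* (7.29 to 11.3) and 3.53 CPM of *Notch3* (2.41 to 4.98), the highest of both, where the larger clusters had 1.60 to 6.44 and 0.939 to 1.97 CPM. *Cspg4* had 1 UMI and *Rgs5* had 0 in the 211 cells. With the markers left among the genes used for clustering, the highest *Pdgfrb* level of a PC20 cluster was 15.9 CPM, and at a resolution of 0.4 it was 10.7 CPM.

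**Figure D5:**
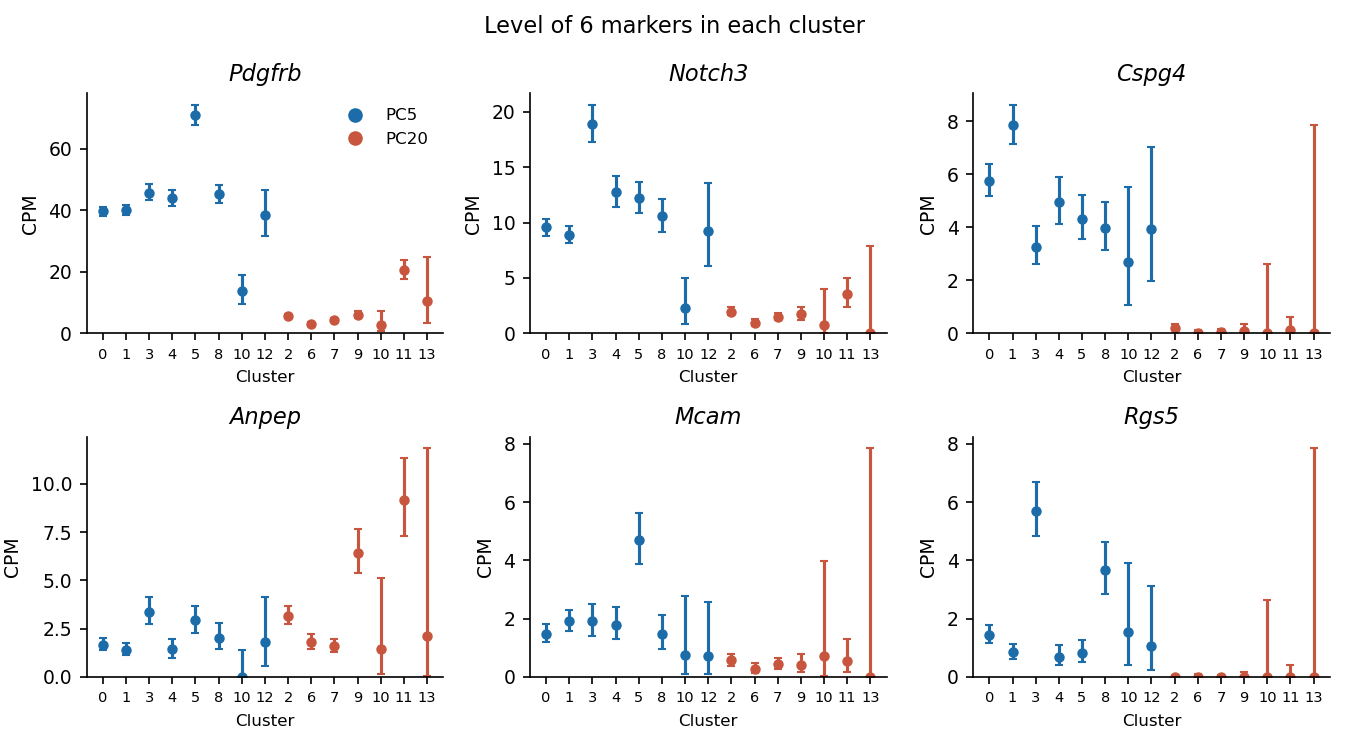
Level of 6 markers (CPM) in each cluster with at least 50 cells of a library, with exact 95% Poisson intervals. Clusters are numbered on the x axis, PC5 to the left and PC20 to the right. *Pdgfrb* and *Mcam* are highest in PC5 cluster 5, *Rgs5* and *Notch3* in PC5 cluster 3, *Cspg4* in PC5 cluster 1, and *Anpep* in PC20 cluster 11.

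Correlations of other genes with the markers were weak. Over 8847 thinned PC5 cells and 7434 genes, the genes most like *Pdgfrb* were *Bgn* (Pearson's *r* 0.139), *Col8a1* (0.130) and *Mgp* (0.127), which are matrix genes. For *Notch3* they included *Cox6b2* (0.116) and *Gclc* (0.110). The cells share a library, and at these counts such values are descriptions of little weight. The other markers were in fewer than 10% of thinned cells of either library and were not compared.

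Other genes described for brain PCs were read from a list of 30. Of the 17 with a mean of at least 1 CPM, 13 were at least 2-fold higher in PC5 and 2 in PC20. The basement membrane gene *Nid1* had 1705 CPM in PC5, against 71.5 CPM in PC20, the interferon-inducible membrane protein gene *Ifitm1* 231 and 0.110 CPM, and the transcription factor gene *Foxc1* 108 and 25.9 CPM. The 2 higher in PC20 were *Ebf1*, with 2.94 and 13.4 CPM, and *Rasl12*, listed with 0.390 and 2.47 CPM. For comparison 20.3% and 18.5% of all genes were higher in PC5 and PC20. Most of the 13, *Ifitm1* among them, and *Rasl12* reached the mean of 1 CPM only through the library where they were higher. Their place in these counts is no support for a direction of the list. A further 4 of the 30 had 3 UMIs or fewer in both libraries, as *Abcc9* and *Higd1b* did.

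Of 10 ligand and target genes of PDGFRβ and NOTCH3, 6 had a mean of at least 1 CPM. Of the 6, 1 was at least 2-fold higher in PC5 and 3 in PC20, against 20.3% and 18.5% of all genes at this level. *Hes1*, a transcriptional target of Notch receptors, had 50.4 and 11.98 CPM, the Notch ligand gene *Jag1* 6.24 and 6.16 CPM, and the PDGF ligand gene *Pdgfd* 4.17 and 4.64 CPM. The 3 higher in PC20 were the PDGF-BB gene *Pdgfb*, with 0.0807 CPM in PC5 and 5.05 CPM in PC20, the Notch ligand gene *Jag2*, with 0.363 and 6.20 CPM, and the Notch target *Nrarp*, with 0.359 and 1.92 CPM. All 3 reached the mean of 1 CPM only through PC20, so their count is no support for a direction of the list.

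Of 10 smooth muscle cell genes, which mural cells share to different degrees, 8 had a mean of at least 1 CPM. Of the 8, 2 were at least 2-fold higher in PC5 and 1 in PC20, near the 20.3% and 18.5% of all genes, and 5 differed by less. The level of *Cald1* was 796 and 689.8 CPM, *Tpm2* 101 and 164 CPM, and *Tagln* 219 and 0.230 CPM. *Tagln* reached the mean of 1 CPM only through PC5, so its place in this count is no support for it. Most markers of other brain cells were at or near 0. Of 8 microglia markers 5 had 3 UMIs or fewer in both libraries and 1, *Cx3cr1*, had a mean of at least 1 CPM, at 3.52 and 0.780 CPM, and of 8 oligodendrocyte lineage markers none did. Of 6 astrocyte markers 3 did, and *Slc4a4* had 143 and 229 CPM.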

How the data were processed

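Cultured mouse brain PCs of passages 5 and 20 were compared, with 1 10x 3′ library each. The deposited counts are UMIs per gene and barcode, which the authors made with Cell Ranger 5.0 (per the labels) on the mm10 genome, without normalization. Kept cells summed to 223054273 UMIs (PC5) and 191122251 UMIs (PC20). Barcodes left out were 679 in PC5 and 135 in PC20.

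The 10 markers, gene lists, tests and alternatives were chosen with earlier results of these data known. The genes named are the markers, up to 3 genes of each list with the highest CPM, and the 3 genes most correlated with a marker seen in at least 10% of thinned cells. *Krt18*, *Krt8* and *Krt19* fit this rule. *Ebf1*, *Rasl12*, *Pdgfb*, *Jag2*, *Nrarp*, *Itgb3*, *Itgb5*, *Pecam1* and *Cldn5* were named after their values were seen. So were *Cdh5*, *Gfap*, *Lum*, *Epcam*, *Cdh1* and the genes that lead clusters, where they lie outside the rule. A few genes that the rule or the leading genes of clusters would name are not reported here.

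UMIs were summed over kept cells and scaled to CPM. Intervals are exact Poisson for levels, conditional binomial for ratios and Clopper-Pearson for shares. A bound against 0 UMIs uses 3 UMIs. Cells were thinned without replacement to 10500 UMIs, a depth set just under the 10th percentile of kept cells, which left out 1103 PC5 and 275 PC20 cells as too shallow. With 1 library per passage, passages were not tested against each other. No doublet caller was run and no doublets were removed. Clusters came from Seurat 5.3.0 (R 4.3.3) with 2000 variable genes, 15 dimensions and resolution 0.8, and other steps used Python 3.11.15 with NumPy 2.4.6, SciPy 1.17.1, pandas 2.3.3 and matplotlib 3.10.9. Identifiers were matched to GENCODE M21 on GRCm38, which held 31011 of 31053 and all 10 markers. The computation was tested on simulated libraries. Alternatives were other cell filters and depths, cells without *Mki67* or *Top2a* UMIs, other scalings and detection minimums, and other cluster settings.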

Additional observations from a re-analysis of the deposited data

How the results depend on the processing

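The number of markers with a mean of at least 1 CPM was 5 or 6 under the alternatives on cells, depth and scaling. Under a minimum of a UMI in at least 10% of cells of either library the number was 3. Of these markers 3 to 5 were at least 2-fold higher in PC5 and 0 in PC20. The share of all genes is not given for the alternatives. *Cspg4* and *Mcam* reached the mean, and *Notch3* and *Cspg4* the 10% minimum, only through PC5. *Rgs5*, the only other marker close to the mean, at 0.908 CPM, had 0 UMIs in PC20 and could reach it only through PC5. These counts are therefore no support for a direction. The log2 ratios kept their sign under each alternative run. Their ranges were 2.74 to 3.08 for *Pdgfrb*, 2.65 to 2.96 for *Notch3*, 5.16 to 6.34 for *Cspg4*, 2.21 to 2.57 for *Mcam* and -0.64 to -0.27 for *Anpep*. For *Rgs5* the bound against 3 UMIs ranged from 4.80 to 6.88, leaving out the other scalings. The values of 7.19 and 7.49 under those scalings are not read as bounds against 3 UMIs. Of all values, 43 of 48 stayed within the counting interval of the value reported. This tally includes the *Rgs5* values of 7.19 and 7.49, which could not lie above it because the *Rgs5* interval has no upper end. The value of -0.27 for *Anpep* came from 1 random thinning and lay outside the interval with all UMIs, -0.82 to -0.45. No interval is given for it, so the direction of *Anpep* at that depth is not read as settled. The cause was not tested. The share of cells with 2 or more markers followed the depth, since more UMIs per cell show more genes. It was 2.50% in PC5 and 0.172% in PC20 at 5000 UMIs, 18.8% and 1.44% at 20000, 21.8% and 5.18% without thinning, and 0.192% and 0% when 2 UMIs of a gene were asked for. In cells without a *Mki67* or *Top2a* UMI it was 8.79% and 1.24%, and the cause was not tested. Without the 5% of cells with the most UMIs, where doublets could lie, it was 8.02% and 0.685%. Of 20 highest cluster levels 12 stayed within that interval under other cluster settings. No paired analysis was possible because each passage has 1 library, and for the same reason no library could be left out. Markers under about 3 UMIs per library, *Abcc9* and *Higd1b*, are given as counts without a ratio. The upper ends of their intervals in PC5 and PC20 were 0.0250 and 0.0292 CPM for *Abcc9* and 0.0250 and 0.0193 CPM for *Higd1b*. Why they were this low was not tested.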
